A study of Mus musculus with 768 samples.

Results

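Notch pathway genes were followed across the states of Schwann cells, the glia of peripheral nerve, at postnatal day 5 (P5). The 9 genes were taken by identifier from the 25700 genes of the count table. They are the receptors Notch1, Notch2 and Notch3, the ligand Jag1, the nuclear factors Rbpj and Maml1, and the target genes Hes1, Hey1 and Hey2. Cells came from sciatic nerves of P0Cre, ReYFP, βAct-DsRed mice, in which Cre under the P0 promoter switches on a yellow reporter in Schwann cells and DsRed marks all cells. Single YFP-positive cells filled 2 plates with 384 wells each, and their RNA was sequenced by Smart-Seq2, which covers whole transcripts. Each plate pooled male and female mice and was 1 biological replicate, so every comparison rests on n = 2 plates. All cells shared this genotype and age, and no mutant or treated group was part of the comparisons.

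Notch receptors sit in the cell membrane and are activated by ligands of the Delta and Jagged families on a neighbouring cell. Ligand binding lets a metalloprotease and then the gamma-secretase complex cut the receptor, and its intracellular part moves to the nucleus. There it joins the DNA-binding protein RBPJ and a Mastermind coactivator and turns on repressor genes of the Hes and Hey families. In Schwann cells the pathway is known for its part in the formation and proliferation of immature cells and as a brake on myelination.

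Of 768 wells, 655 were retained (325 in plate 1 and 330 in plate 2), those with at least 1500 detected genes and outside the plate corners. They were divided by 12 genes that were left out of all tests. Wells with at least 5 reads in at least 3 of 10 mitotic genes were called cycling (32 and 25 wells). Of the others, those under 10 CPM (reads per 1000000 reads of a well or sum) of Ncmap, a myelin protein gene, were called immature (106 and 122 wells). The rest were called intermediate below 30000 CPM of Pmp22, a compact myelin protein gene (79 and 70 wells), and myelinating from there on (108 and 113 wells). Median reads per well were 583889 in cycling, 450308 in immature, 517142 in intermediate and 765668 in myelinating cells. Sox10, a transcription factor that marks the Schwann cell lineage, stood between 178 and 311 CPM in the 8 sums of plate and state. No well had at least 5 reads in at least 3 genes of the lists of endothelial cells, pericytes or vascular smooth muscle, immune cells, neurons or skeletal muscle. The list of fibroblast-like cells was met by 3 cycling, 7 immature, 8 intermediate and 3 myelinating wells, and that of perineurial cells by 4 intermediate wells and no others.

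Some wells stood apart in the member genes. In plate columns 8 and 16, which held 38 of the retained wells, fewer genes were detected: the column medians in plate 1 were 1436.5 and 1759.5 genes, against 2236.5 to 3804 in the other columns. Notch2 was high in several of these wells. An intermediate well of plate 1, in column 16, held 2161 Notch2 reads or 8247 CPM, and the next highest of all retained wells held 906 CPM. The Notch2 changes among immature, intermediate and myelinating cells, its intermediate CPM, and its shares and medians over wells are therefore given with and without columns 8 and 16. This choice was made after the data were seen. Its thinned shares, its pairing with Notch1 and its correlations include these columns.

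For a view of the sequence at the receptor gene that changed and at the DNA-binding factor of the pathway, the 250 bases before the RefSeq start of Notch1 (chr2:26503823-26504072, minus strand) and Rbpj (chr5:53590096-53590345, plus strand) are printed 5′ to 3′ in build GRCm38.p6. Capitals mark TGGGAA, the core letters of the RBPJ motif, or TTCCCA, the same letters on the other strand.
Notch1: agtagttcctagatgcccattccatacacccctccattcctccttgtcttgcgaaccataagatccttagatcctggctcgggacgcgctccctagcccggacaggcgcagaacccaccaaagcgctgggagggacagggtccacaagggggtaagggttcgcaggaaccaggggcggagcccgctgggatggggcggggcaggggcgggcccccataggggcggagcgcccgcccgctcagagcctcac
Rbpj: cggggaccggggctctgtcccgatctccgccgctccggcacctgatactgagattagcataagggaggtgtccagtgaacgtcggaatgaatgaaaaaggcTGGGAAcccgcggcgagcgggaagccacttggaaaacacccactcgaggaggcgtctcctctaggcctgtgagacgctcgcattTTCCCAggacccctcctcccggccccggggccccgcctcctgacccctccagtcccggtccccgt
Windows of 250 bases before to 50 bases after the start were at hand for 7 of the 9 genes, all but Hes1 and Hey1. The letters were found at 2 places in the window of Rbpj, 149 and 65 bases before the start printed here, and at 2 places in that of Hey2, 207 and 3 bases before the start. A second window of Rbpj, for another start, overlaps the first and held 1 match. It is the site 65 bases before the start printed here, and lies 205 bases before the other start. Those of Notch1, Notch2, Notch3, Jag1 and Maml1 held none. Among the windows of 27025 genes, 25.5% held at least 1 match on either strand and 3.84% held at least 2, so a match is common and is a description only.

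Per length and over all states, Notch1 and Hes1 were the most abundant members, with means of 28.4 and 28.1 TPM (reads divided by exon length, then scaled to a total of 1000000) over the 8 sums of plate and state. Notch2 followed at 13.7 TPM and Hey1 at 13.05 TPM. Jag1 (3.34 TPM), Maml1 (2.83 TPM) and Rbpj (2.04 TPM) were low, and Notch3 (0.0552 TPM) and Hey2 (0.00110 TPM) had few reads. The order changed with the state: in myelinating cells the mean was 18.9 TPM for Notch2, 11.2 for Notch1 and 7.50 for Hes1, and in intermediate cells it was 29.5 TPM for Notch1, 14.2 for Notch2 and 12.7 for Hes1. In intermediate cells Notch2 stood above Hes1 in plate 1 (22.7 against 4.74 TPM) but below it in plate 2 (5.68 against 20.6 TPM). All these TPM, also those over the 8 sums, include columns 8 and 16 and were not computed without them. Without these columns the intermediate Notch2 level of plate 1 was 38.7 CPM in place of 99.9, so the place of Notch2 in these orders is uncertain. Notch2 was found most often, with at least 1 read in 513 of the 655 wells (78.3%), before Notch1 with 384 wells (58.6%), Hes1 with 146 (22.3%) and Rbpj with 103 (15.7%). Most wells held reads of 1 to 3 members, and no well held more than 6.

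**Figure D1:**
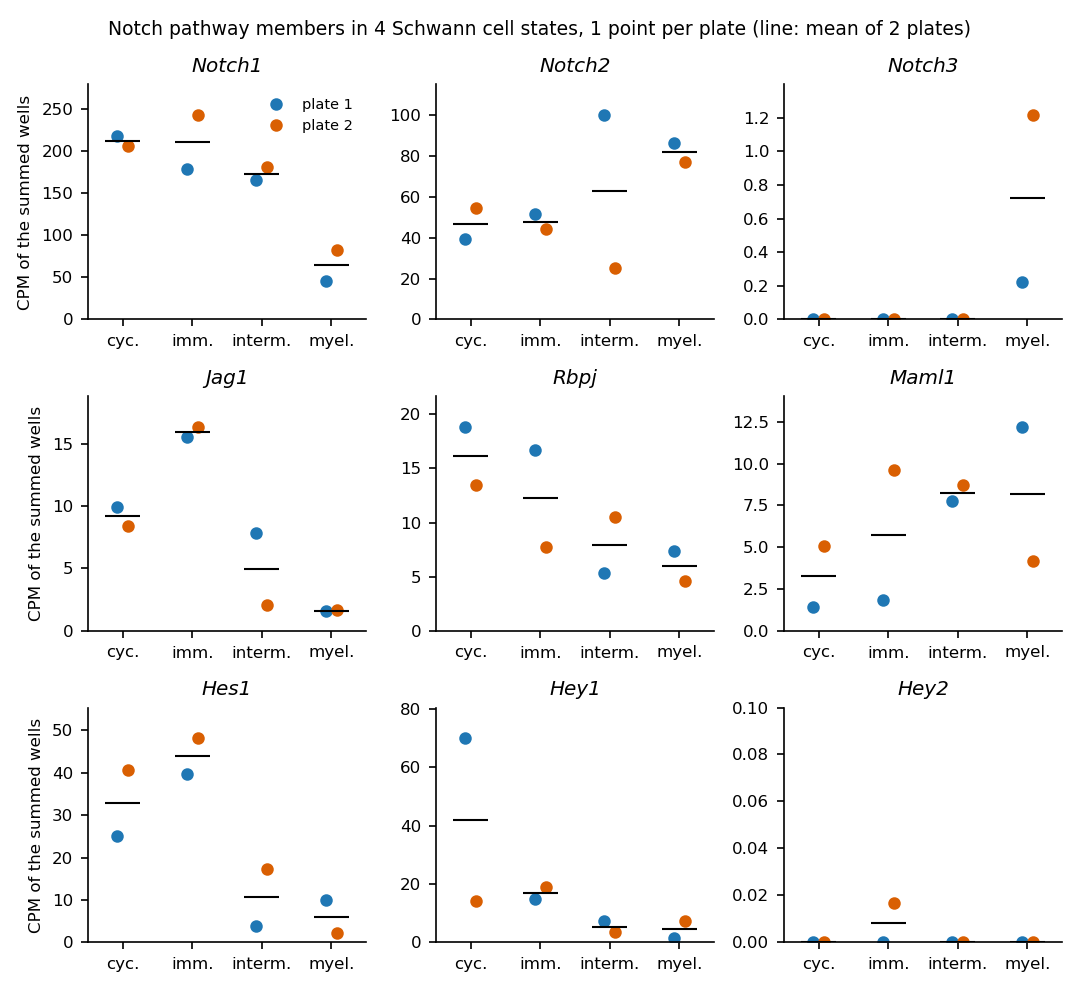
Level of each member in CPM (linear axes, each with its own scale) in cycling, immature, intermediate and myelinating cells, 1 point per plate with the mean of the 2 plates as a line. Both Notch1 points of myelinating cells, 45.3 and 82.8 CPM, lie below the 6 others, and the 2 Notch2 points of intermediate cells lie far apart, at 99.9 and 25.3 CPM.

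Notch1 (ENSMUSG00000026923, chr2:26457903-26516663), the receptor best known in Schwann cell development, was lower in myelinating than in immature cells. Its level in immature cells was 178 CPM in plate 1 and 242 CPM in plate 2. Cycling cells had 218 and 205 CPM and intermediate cells 165 and 180 CPM. Myelinating cells had 45.3 and 82.8 CPM, so that both plates lay below every other sum, whereas cycling and intermediate cells each overlapped immature cells. In order, the means were 212 ± 8.85 CPM in cycling, 210 ± 45.1 in immature, 173 ± 10.5 in intermediate and 64.0 ± 26.5 in myelinating cells (SD, n = 2 plates). Neither cycling nor intermediate cells differed from immature cells past the threshold of the test.

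In the edgeR quasi-likelihood test over 13892 genes, Notch1 fell in myelinating against immature cells by 1.33 on the log2 scale (SE 0.303, Benjamini-Hochberg adjusted p = 0.0388), or 2.52-fold. The log2 ratio was -1.58 within plate 1 and -1.17 within plate 2. It was the only one of 8 members tested to pass, while 5.10% of all genes tested passed in this comparison. The call was lost when myelinating cells were taken from 20000 CPM of Pmp22 (log2 change -1.03, adjusted p = 0.0811) and without the top 5% of wells by detected genes (-1.29, adjusted p = 0.0568). Over 14 alternative settings the adjusted p ran from 0.000987 to 0.0811, and 12 of them kept the call. Against intermediate cells the change was -1.19 (SE 0.302), with an adjusted p of 0.169 in edgeR and of 0.0124 in DESeq2 (0.0108 to 0.333 over the 14 alternatives). The 6 genes of the fibroblast-like list also had a lower summed level in myelinating cells, 283 to 303 CPM against 2247 to 2517 CPM in immature cells, almost all from Col1a1 and Col3a1, which Schwann cells also express. Of the list, Pdgfra and Cd34 were at 0 in immature cells and under 1 CPM in myelinating cells. Dcn had 21.5 and 6.74 CPM in immature and 0 and 1.62 CPM in myelinating cells, and Lum had 0 and 3.29 CPM against 0 and 0.367 CPM. The list was met by 7 of 228 immature and 3 of 221 myelinating wells, and the part of such cells in the result was not tested. In sums of wells, fewer cells with the RNA and less RNA per cell cannot be told apart, and the shares of wells below bear on this.

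Notch1 reads were found in 66.0% and 68.0% of immature wells in the 2 plates, against 38.0% and 57.5% of myelinating wells. Because myelinating wells were the deepest, wells were also thinned to 100000 reads, which left out 2 cycling, 10 immature, 8 intermediate and 2 myelinating wells with fewer. The shares were then 60.4% and 65.0% against 32.1% and 52.2%, with the same direction in both plates. Among wells with a Notch1 read, the median was 210 and 227 CPM in immature, 225 and 243 CPM in intermediate, and 42.2 and 124 CPM in myelinating cells. Both the share of wells and the median level within wells with a read were thus lower in myelinating cells in each plate. The medians were taken from all reads and not after thinning, and the part of depth in them was not tested. Intermediate wells held a Notch1 read in 49.4% and 68.6%.

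Notch2 (ENSMUSG00000027878, chr3:98013527-98150361), another receptor of the family, had the opposite order in the states at the ends. It stood at 51.4 and 44.2 CPM in immature cells and at 86.0 and 77.2 CPM in myelinating cells, without overlap. How many of all genes part these 2 states in this way was not counted. Cycling cells had 39.4 and 54.4 CPM. The fitted log2 change in myelinating against immature cells was 1.16 (SE 0.565, edgeR, adjusted p = 0.371), and the ratio was 1.13 within plate 1 and 1.17 within plate 2. It did not pass the threshold, and without columns 8 and 16 it was 1.17 (SE 0.366, adjusted p = 0.133, and 0.114 to 0.570 over the 14 alternatives).

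Intermediate cells differed between plates, with 99.9 CPM of Notch2 in plate 1 and 25.3 CPM in plate 2. The 9 intermediate wells of columns 8 and 16 in plate 1 held 2966 of the 4683 reads (63.3%), and the well with 8247 CPM alone held 46.1%. Without these columns the levels were 38.7 and 26.7 CPM. The log2 change in intermediate against immature cells was then -0.35 where it had been 0.54 (adjusted p = 0.864 and 0.858, edgeR, and 0.567 to 1 over the alternatives). In myelinating against intermediate cells it was 1.53 where it had been 0.62 (edgeR, adjusted p = 0.141 and 0.859, and 0.131 to 1 over the alternatives).

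Shares of wells depend less on single wells than sums do. A Notch2 read was found in 92.6% and 96.5% of myelinating wells, against 61.3% and 71.3% of immature, 74.7% and 68.6% of intermediate, and 68.8% and 92.0% of cycling wells. Without columns 8 and 16 the shares were 93.3% and 96.2% of myelinating and 60.8% and 71.1% of immature wells. They were then 71.4% and 72.3% of intermediate and 68.8% and 91.7% of cycling wells. After thinning to 100000 reads the myelinating wells had 86.8% and 85.8%. Immature wells then had 61.4% and 64.1%, intermediate wells 68.1% and 53.6%, and cycling wells 58.1% and 79.2%, all below both myelinating values. Most wells held both receptors or Notch2 alone: of the 106 myelinating wells with a Notch1 read, 102 also had Notch2, and of the 115 without Notch1, 107 had Notch2. In immature cells Notch2 was found in 101 of 153 wells with Notch1 and in 51 of 75 without it. The median Notch2 level over all wells was 63.5 and 51.4 CPM in myelinating cells and 18.97 and 22.1 CPM in immature cells. Without columns 8 and 16 it was 60.8 and 49.1 CPM in myelinating and 18.97 and 20.3 CPM in immature cells.

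**Figure D2:**
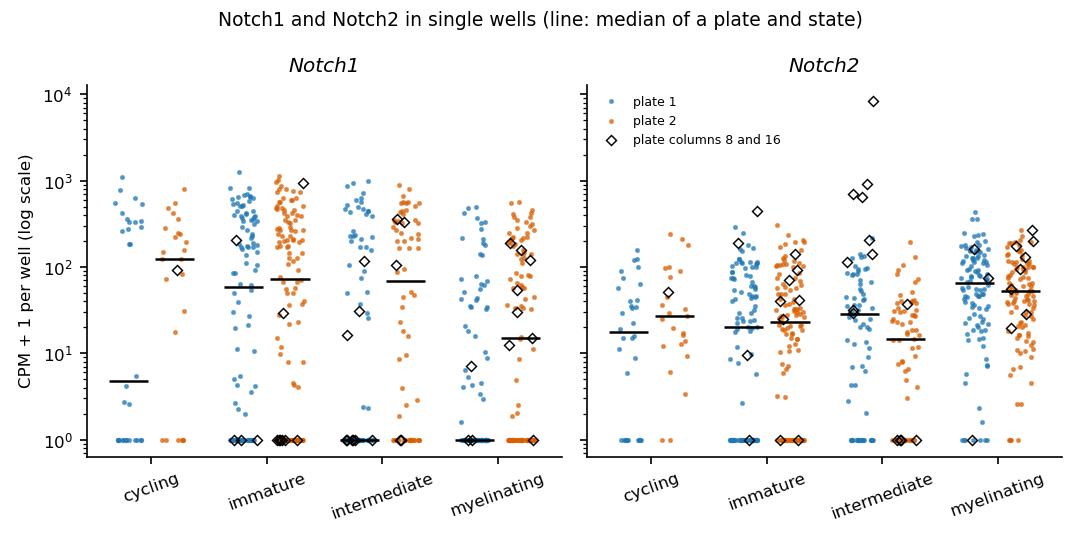
Notch1 and Notch2 in each retained well as CPM + 1 on a log axis, by state and plate, with the median of each plate and state as a line and the wells of plate columns 8 and 16 as open diamonds. Notch2 lies above 0 in nearly all myelinating wells, and the highest Notch2 well, at 8247 CPM, is an intermediate well of plate 1 in column 16.

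Notch3, a receptor known mainly from vascular smooth muscle and pericytes, had no read in the cycling, immature or intermediate wells. Myelinating cells held 22 reads in 1 well of plate 1 and 106 reads in 2 wells of plate 2, or 0.223 and 1.22 CPM. In immature cells, 0 of 106 and 0 of 122 wells allow a share of up to 2.83% and 2.46%, and the myelinating shares of 0.926% and 1.77% lay below these limits, so no difference was detectable at this depth. Of the 8 genes of the pericyte and vascular smooth muscle list, Rgs5, Kcnj8, Abcc9 and Myh11 were at 0 in all states. The summed level was 15.2 to 39.6 CPM in immature and 58.9 to 70.6 CPM in myelinating cells. In cycling and intermediate cells, which had no Notch3 read, it was 50.1 to 62.2 and 59.6 to 60.8 CPM. Pdgfrb, from the same list, had 8.21 and 7.01 CPM in immature and 40.2 and 44.4 CPM in myelinating cells, and Tagln had at most 7.53 CPM against 14.1 and 20.03 CPM. Cspg4 had 23.8 and 5.72 CPM against 4.61 and 5.57 CPM. In intermediate cells Pdgfrb had 41.9 and 44.6 CPM, Tagln 14.3 and 1.51 CPM and Cspg4 3.37 and 14.7 CPM. In cycling cells Pdgfrb had 0 and 5.74 CPM, Tagln 1.11 and 0 CPM and Cspg4 49.0 and 56.4 CPM. No well met the list, and the part of such cells in the Notch3 reads was not tested. Exons of Notch3 (Gm17276), Notch1 (0610009E02Rik and Gm13568) and Maml1 (Gm26542) overlap another gene on the other strand, where reads cannot be told apart without strand. Those of Notch2 overlap Gm42820 on the same strand, so strand would not tell reads there apart. The exons of Jag1, Rbpj, Hes1, Hey1 and Hey2 overlap no other gene.

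Jag1 (ENSMUSG00000027276, chr2:137081456-137116644), the only ligand among the members, had its highest sums in immature cells, at 15.5 and 16.3 CPM. Cycling cells had 9.96 and 8.40 CPM, intermediate cells 7.85 and 2.09 CPM and myelinating cells 1.58 and 1.66 CPM. The sums of the 4 states did not overlap, and both plates gave the same order. How many of all genes part the states in this way was not counted. The fitted log2 change in myelinating against immature cells was -2.91 (SE 1.09, adjusted p = 0.221 in edgeR and 0.0340 in DESeq2, and up to 0.404 over the alternatives). In cycling against immature cells it was -0.69 (SE 1.02, edgeR, adjusted p = 0.815). In intermediate against immature cells it was -1.53 (SE 1.04, edgeR, adjusted p = 0.679). The reads came from few wells: 12 and 17 immature wells, 7 and 4 intermediate wells, and 5.56% and 2.65% of myelinating wells. In plate 1, 1 immature well held 68.9% of the Jag1 reads of its sum. The top well held 67.2% and 39.3% in cycling, 43.5% and 43.7% in intermediate and 85.3% and 72.4% in myelinating cells. The order of the states without these wells was not worked out. The share of wells with a read was largest in cycling cells, 21.9% and 20%, against 11.3% and 13.9% in immature cells.

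Rbpj, the DNA-binding factor of the pathway, showed no difference past the threshold. It had 18.9 and 13.4 CPM in cycling, 16.7 and 7.74 CPM in immature, 5.35 and 10.5 CPM in intermediate and 7.41 and 4.57 CPM in myelinating cells, and neighbouring states overlapped. The fitted log2 change in myelinating against immature cells was -0.64 (SE 0.868, edgeR, adjusted p = 0.853). Reads were found in 14.2% and 14.8% of immature and 16.7% and 19.5% of myelinating wells, the reverse order of the levels. Thinned to 100000 reads these shares were 12.9% and 11.97% against 11.3% and 14.2%, and they overlapped.

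Maml1, a coactivator that binds the complex of RBPJ and the receptor's intracellular part, differed between plates. It stood at 1.84 and 9.64 CPM in immature and at 12.2 and 4.21 CPM in myelinating cells, so that the log2 ratio was 2.79 within plate 1 and -0.76 within plate 2. A single myelinating well of plate 1 held 70.4% of the Maml1 reads of its sum. Intermediate cells had 7.74 and 8.74 CPM and cycling cells 1.46 and 5.10 CPM. The fitted change in myelinating against immature cells was 0.90 (SE 1.25, edgeR, adjusted p = 0.859), and between 4% and 10% of wells held a read in each state and plate.

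Hes1 (ENSMUSG00000022528, chr16:30064384-30067796), a repressor and a direct target of the pathway, had higher sums in cycling and immature cells than in the others. It had 25.2 and 40.6 CPM in cycling and 39.8 and 48.1 CPM in immature cells, against 3.95 and 17.4 CPM in intermediate and 9.89 and 2.26 CPM in myelinating cells. The sums of the first pair lay above those of the second without overlap, whereas states within each pair overlapped. The pairs were not compared in a test, and how many of all genes part them in this way was not counted. The top well held 28.9% and 34.3% of the Hes1 reads in cycling and 18.8% and 20.9% in immature cells. In intermediate cells it held 51.4% and 33.6%, and in myelinating cells 45.2% and 23.9%. For myelinating against immature cells the fitted log2 change was -2.47 (SE 0.914, edgeR, adjusted p = 0.216), with -1.58 within plate 1 and -3.80 within plate 2. In intermediate against immature cells it was -1.92 (SE 0.896, adjusted p = 0.494). Neither passed the threshold, and the standard errors were about 3 times that of Notch1.

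The share of wells with a Hes1 read was 46.9% and 56.0% in cycling, 28.3% and 32.8% in immature, 8.86% and 17.1% in intermediate and 12.96% and 12.4% in myelinating cells. After thinning it was 35.5% and 54.2%, 26.7% and 29.9%, 5.56% and 17.4%, and 9.43% and 7.08%. Cycling wells thus stood above immature wells in share, but not in CPM. Among immature wells, Hes1 was found in 53 of 153 with Notch1 (34.6%) and in 17 of 75 without it (22.7%). In myelinating wells these shares were 11.3% and 13.9%. They are given as a description. Median reads were 478376 in immature wells with Notch1 and 410546 in those without it, and 764015 and 781497 in myelinating wells. The part of depth in these shares was not tested.

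Hey1, a related target and repressor, was uneven between plates in cycling cells. Its levels were 70.0 and 14.2 CPM in cycling, 14.8 and 19.02 CPM in immature, 7.38 and 3.51 CPM in intermediate and 1.62 and 7.23 CPM in myelinating cells. A single cycling well of plate 1 held 48.9% of the Hey1 reads of its sum, and the 2 plates of cycling cells lay on either side of the immature level of plate 2. The fitted log2 change in myelinating against immature cells was -1.55 (SE 0.989, edgeR, adjusted p = 0.524). The share of wells with a read was 25% and 16% in cycling, 9.43% and 9.84% in immature, 6.33% and 5.71% in intermediate and 6.48% and 9.73% in myelinating cells. Hey2, the third target, had 1 read, in an immature well of plate 2. It did not pass the filter on low counts.

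**Figure D3:**
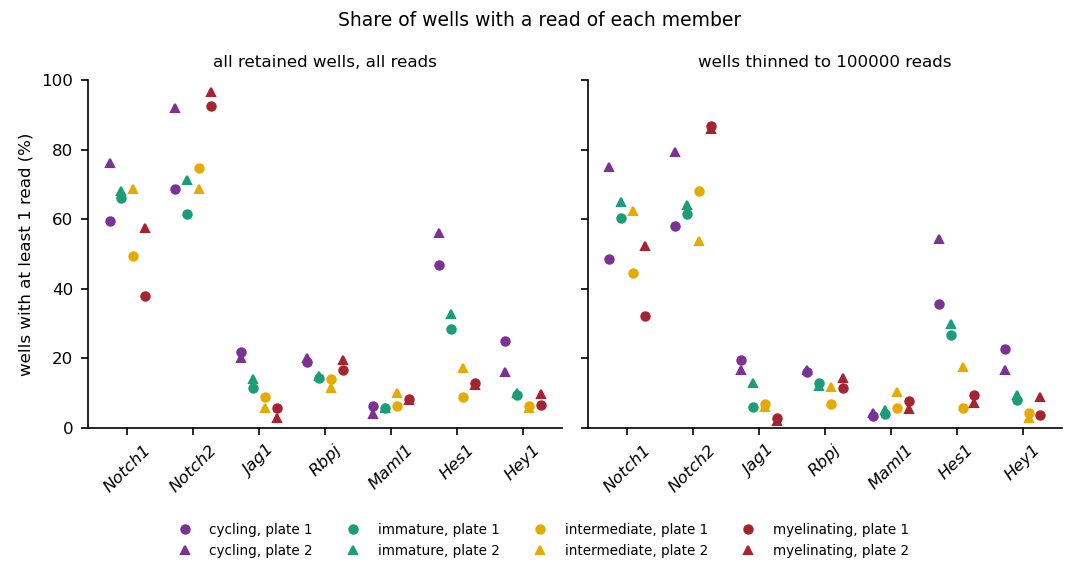
Share of wells with at least 1 read of each member in percent, by state (colour) and plate (circle for plate 1, triangle for plate 2), with all reads and after thinning of wells to 100000 reads, without the 22 wells that had fewer. Notch2 in myelinating wells, at 86.8% and 85.8% after thinning, and Hes1 in cycling wells, at 35.5% and 54.2%, lie above the same gene in the other states.

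In the remaining comparisons no member passed. In cycling against immature cells, 0 of 8 members tested were called by edgeR (0 at an unadjusted p under 0.05, and 0 by DESeq2), where 2.46% of all genes were called and 15.3% had such a p. In intermediate against immature cells the counts were again 0, 0 and 0, against 1.95% and 10.9% of all genes. In myelinating against intermediate cells edgeR called 0 members, 1 had an unadjusted p under 0.05 and DESeq2 called 1, in each case Notch1, against 0.770% and 9.32% of all genes. These shares of all genes are those of edgeR. DESeq2 called more: 1295 of 13892 genes in cycling against immature, 917 in intermediate against immature and 634 in myelinating against intermediate cells. Of the members in myelinating against immature cells, 3 (Notch1, Jag1 and Hes1) had an unadjusted p under 0.05, against 16.3% of all genes. The comparisons with immature cells share those sums. The median log2 change of the members in myelinating against immature cells was -0.99, that of all genes -0.04. This median includes Notch3, at 8.43 from reads in 3 wells. The members were chosen with earlier results of these data known, so the median is a description only. Notch3 is counted as tested, but it passed the filter only through its reads in myelinating cells. With no read in cycling, immature or intermediate cells, it could not be called in cycling against immature or in intermediate against immature cells. In these comparisons 7 members could be called.

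**Figure D4:**
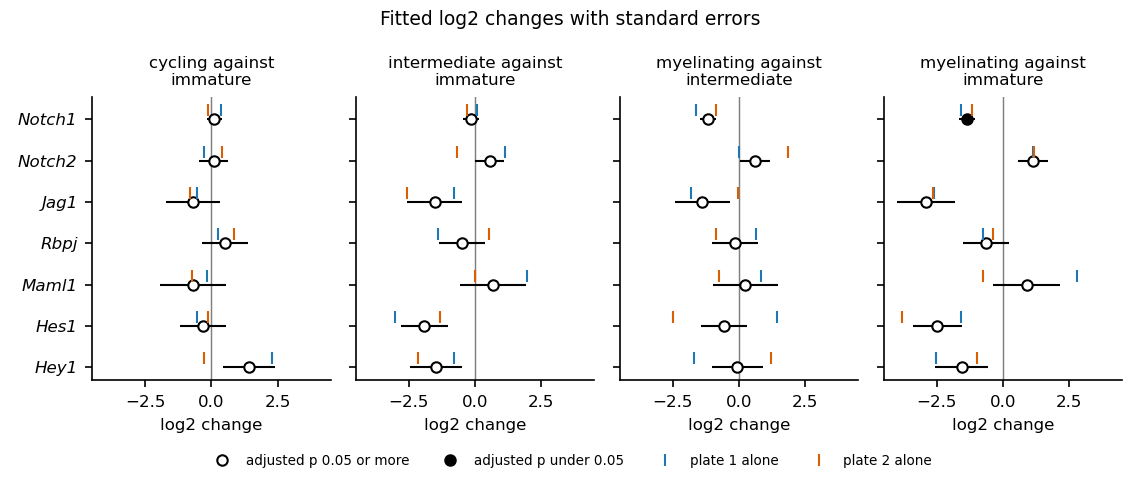
Fitted log2 changes of 7 members with their standard errors in the 4 comparisons, filled where the adjusted p was under 0.05, and the log2 ratio within each plate as a tick. Notch1 in myelinating against immature cells, at -1.33, is the only filled point, and the 2 plates fall on opposite sides of 0 for Rbpj, Maml1, Hes1 and Hey1 in myelinating against intermediate cells.

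A list of 54 other pathway genes was read beside the members, of which 44 passed the filter. The most abundant per length were Psenen, a subunit of gamma-secretase, at a mean of 207 TPM over the 8 sums, and Adam10, the metalloprotease of the first cut, at 157 TPM. Snw1, a nuclear cofactor, had 70.7 TPM, Hes6, a Hes family member, 70.4 TPM, and Ncstn, another gamma-secretase subunit, 39.3 TPM. Exons of Psenen (Gm49396 and U2af1l4), Snw1 (Slirp) and Ncstn (Copa) overlap a gene on the other strand, with the same limit as for the members above. Among the ligands, Dll1, Dll3, Dll4 and Dner had no read in the retained wells, nor had the targets Hes3 and Heyl. The ligands Jag2, Dlk1 and Dlk2 had 20, 32 and 111 reads over all retained wells, against 2888 of Jag1.

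Adam10 rose in myelinating cells. It had 275 and 222 CPM in immature, 395 and 264 CPM in intermediate and 460 and 457 CPM in myelinating cells, and both myelinating sums lay above all others. The log2 change in myelinating against immature cells was 1.27 (SE 0.243, edgeR, adjusted p = 0.0184), or 2.40-fold. It was the only call among the 44 genes in this comparison, where 5.10% of all genes were called. With scaling by total reads alone the change was 0.88 and the call was lost (adjusted p = 0.0660). The other 13 alternatives kept it, with adjusted p down to 1.28e-05. That scaling moved the median log2 change of all genes from -0.04 to -0.42. Ncstn had 84.7 and 79.0 CPM in immature and 34.4 and 26.3 CPM in myelinating cells, a log2 change of -1.05 (SE 0.310, edgeR, adjusted p = 0.112).

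In cycling against immature cells, 2 of the 44 genes were called, both lower in cycling cells (2.46% of all genes were called). Only 43 of the 44 had a read in these states and could be called, and likewise 43 in myelinating against intermediate cells. Psen2, a catalytic subunit of gamma-secretase, had no read in the 32 and 25 cycling wells, and had 47.6 and 23.4 CPM in immature cells, in 17 and 17 wells (edgeR, adjusted p = 0.00398). The 0 of 32 and 0 of 25 wells allow shares of up to 9.38% and 12%, against 16.04% and 13.9% of immature wells with a read. Hes6 had 19.1 and 9.84 CPM in cycling and 60.5 and 56.6 CPM in immature cells (log2 change -1.92, SE 0.409, edgeR, adjusted p = 0.0496), from 3 and 2 cycling wells. With the plate as a replicate block the adjusted p was 0.0682. The call was kept under 4 of 14 alternatives, over which the adjusted p ran from 0.00101 to 0.0846. In intermediate against immature cells and in myelinating against intermediate cells 0 of 44 were called by edgeR, and 2 in each had an unadjusted p under 0.05, against 10.9% and 9.32% of all genes. DESeq2 called 1 and 0, where it called 917 and 634 of all 13892 genes. In the comparisons with a call, 9 of 44 genes (cycling against immature) and 7 of 44 (myelinating against immature) had such a p, against 15.3% and 16.3% of all genes. The list's median log2 change was -0.60 in cycling against immature cells, or -0.45 with genes at 0 in 1 state set to their bound, beside -0.13 for all genes. In myelinating against immature cells it was -0.00281, beside -0.04 for all genes. The list, too, was chosen with earlier results of these data known, and these medians are a description only.

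The genes whose levels ran most like those of a member over wells are given by the lower of the 2 Spearman coefficients within plates, among genes with a read in at least 20% of wells of each plate. For Notch2 these were Cd9 (0.31), Atxn1 (0.29) and 1700066B19Rik (0.28). For Hes1 they were Sostdc1 (0.25), Scn7a (0.25) and Rps27l (0.25), and for Notch1 they were Eef1a1, H3f3b and Ptma, at 0.21 to 0.22. Cd9, the gene most like Notch2, was at the other end for Notch1 (-0.23). For Notch3, Jag1, Rbpj, Maml1 and Hey1 the highest coefficients ran from 0.13 to 0.19. These coefficients over 325 and 330 wells share depth and cell state and are weak. They were picked as extremes among 5795 genes compared, and that of Notch3 rests on 3 wells with a read.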

How the data were processed

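RNA was read in single YFP-positive Schwann cells of P5 mice, 1 cell per well, in 2 plates of 384 wells. The authors deposited raw read counts per gene and well. Per the labels they used bcl2fastq, STAR 2.6.1c and featureCounts with the mouse build GRCm38.p5. The methods of the study name another STAR version and a human build, whereas the identifiers are those of mouse. Identifiers were matched to GENCODE vM21 (25587 of 25700), and the unmatched genes held 0.0916% of reads. The plates held 226050990 and 203322077 reads. Reads carry no molecular identifiers, so limits from counts cover counting error only, and whether counting used strand is not given in the sources used here.

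The 9 members, the states, the pathway list and the cell type lists were chosen with earlier results of these data known. Reads were summed by plate and state (8 sums). The main test was the quasi-likelihood test of edgeR 4.0.16 in R 4.3.3, with TMM scaling, filterByExpr, 1 spread for all states (4 residual degrees of freedom) and no block. The Benjamini-Hochberg adjustment ran over every tested gene, with a threshold of 0.05. The SE of an edgeR change was worked back from the test, as the size of the log2 change over the square root of its F statistic. DESeq2 1.42.0 was an alternative. CPM are reads per 1000000 reads of a sum, TPM are first divided by exon length, and ratios within a plate are of TMM-scaled CPM with 0.5 CPM added. No doublet caller was run, but the top 5% of wells by detected genes were left out as an alternative. A pair of alternatives was added after the data were seen: without columns 8 and 16, and without the well with most reads of each gene.

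All 9 members are named. Of the pathway list, named were genes past the threshold (at most 6 per comparison by log2 change) and the 5 of highest mean TPM. Ncstn, Dll1, Dll3, Dll4, Dner, Jag2, Dlk1, Dlk2, Hes3 and Heyl, where other values than these are given, were named after their values were seen. The sums are paired across states, since the 4 states of a plate share its animals. Deviations of 2 states of 1 plate correlated weakly over 1990 genes (r from -0.00965 to 0.188).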

Additional observations from a re-analysis of the deposited data

Results flagged for a closer look

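Reads of members were also present in the 113 wells that were not retained, which entered no comparison and held 7437553 reads in all. Notch2 had 1812 reads there, in 11 wells, or 244 CPM, against a mean of 59.7 CPM over the 8 sums of retained wells. Of these, 1666 reads lay in 7 of the 16 such wells in columns 8 and 16 of plate 1, where Notch2 reached 402 CPM. Notch1 had 11 reads (1.48 CPM, against a mean of 165 CPM in retained wells), Rbpj had 9 reads (1.21 CPM against 10.6) and Hes1 had 9 reads (1.21 CPM against 23.4), each above the 3 counts that a count of 0 allows. Whether the Notch2 reads of these columns came from the sorted cells was not tested.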

How the results depend on the processing

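Of 434 log2 changes of members and called pathway genes under 14 alternatives, 399 kept their direction and their side of the threshold, 13 lost a call, 3 gained one and 19 changed sign, none of these being a call. Sign changes are given by comparison. In cycling against immature cells, Notch2 had -0.028 with total reads alone, and Maml1 0.20 after thinning. In intermediate against immature cells, Notch2 had -0.34 with a minimum of 2500 genes, -0.021 without each gene's top well and -0.35 without columns 8 and 16. Rbpj had 0.11 after thinning, and Maml1 -0.21 with the Pmp22 limit at 20000. In myelinating against intermediate cells, Notch2 had -0.074 after thinning, and Rbpj 0.081 with the limit at 40000 and 0.36 without top wells. Maml1 had -0.00541 with total reads alone, -0.36 after thinning and -0.71 without top wells. Hey1 had 0.059 with the plate as a replicate block, 0.044 after thinning, 1.25 with the limit at 20000, 0.13 without the top 5% of wells and 0.34 without top wells. Rbpj in myelinating against immature cells had 0.079 after thinning. The cause was not tested.

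Counts of calls moved as follows. Of pathway genes in cycling against immature cells, 2 became 5 with DESeq2, 4 without top wells, and 1 with size factors in place of TMM, the replicate block, the minimum of 2500 genes, thinning, both Ncmap limits, both Pmp22 limits, and without the top 5% of wells or columns 8 and 16. DESeq2 called 1 in intermediate against immature cells. Of those in myelinating against immature cells, 1 became 6 with DESeq2, 3 with no filter and 2 with total reads alone or thinning. Of members, DESeq2 and no filter called 1 in myelinating against intermediate cells, and DESeq2 called 2 in myelinating against immature cells, where the Pmp22 limit at 20000 or leaving out the top 5% of wells gave 0. Apart from Hes6, the replicate block changed no call. Over all genes, DESeq2 called 1295 in cycling against immature cells where edgeR called 342, 917 against 271 in intermediate against immature, 634 against 107 in myelinating against intermediate and 1493 against 708 in myelinating against immature cells, and the edgeR fit with no filter called 838, 682, 420 and 1187. With wells thinned, 472 were called in intermediate against immature and 196 in myelinating against intermediate cells, and without top wells 768 in cycling against immature cells. Total reads alone gave 250 higher and 689 lower calls in myelinating against immature cells, where the main scaling gave 359 and 349. For myelinating against intermediate cells it gave 29 and 110 in place of 48 and 59.

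With 1 plate left out no residual degrees of freedom remain, so the ratio within the other plate has no test. For Notch1 in myelinating against immature cells it was -1.58 or -1.17. The reads of Notch3 and Hey2 came from 3 wells and 1 well.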
